A study of Mus musculus with 12 samples.

Results

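The IL-6, IL-21 and IL-4/IL-13 receptor group was described here across 5 sorted populations of mouse CD4+ T cells. It comprised 9 of the 18194 genes named on the array: the receptor subunits Il6ra, Il6st, Il21r, Il27ra, Il4ra and Il13ra1, the transcription factors Stat3 and Stat6, and the feedback inhibitor Socs3. Members were chosen by gene symbol, and every probe set annotated to 1 of these symbols was taken, which gave 25 probe sets of the 45101 on the array. The genes were selected on measured values as well as on function, since Il13ra1 was included because it was high in Venus-high Tfh cells. The difference between Venus-high and Venus-low Tfh cells is therefore given as a description for every member, and so is each comparison of Venus-high Tfh cells for Il13ra1.

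Follicular helper T (Tfh) cells are the CD4+ T cells that help B cells in germinal centres, and IL-6 and IL-21 are the cytokines best known for promoting them. IL-6 binds Il6ra, which then recruits the signalling subunit gp130 (Il6st). IL-21 binds Il21r together with the common gamma chain, and both routes act mainly through Stat3, whose target Socs3 inhibits gp130 signalling in turn. Il4ra is shared: paired with the common gamma chain it binds IL-4, and paired with Il13ra1 it binds IL-4 or IL-13, with Stat6 as the main transcription factor of both pairs. Mouse T cells are generally held to use the pair with the common gamma chain, and Il13ra1 is better known from myeloid and non-haematopoietic cells.

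All 12 samples came from S1pr2V/+ mice, in which the fluorescent protein Venus reports S1pr2, a sphingosine-1-phosphate receptor that holds cells in the germinal centre, so every group carried the reporter allele. The mice had been immunized subcutaneously with CGG (chicken gamma globulin) in CFA (complete Freund's adjuvant) 10 days earlier, and each sample was a pool of animals. Venus-high Tfh cells (3 pools, from 4, 6 and 4 mice) and Venus-low Tfh cells (3 pools, from 4, 6 and 4 mice) were CXCR5+ PD1-high CD44-high CD4+ lymph node cells split by Venus. PD1-intermediate Th cells (2 pools, 4 mice each) were CXCR5+ and CD44-high. PD1-low Th cells (2 pools, from 6 and 4 mice) were CXCR5-low and CD44-high. Naive CD4+ T cells (2 pools, 2 mice each) were CD44-low and CD62L-high and came from spleen, and their sample labels name immunized donors while the design text also speaks of control mice. Tissue of origin and naive state therefore cannot be told apart in comparisons with the naive cells. The labels do not say whether pools of the same number shared animals, so p-values measure the spread between these 12 pools, and the number of arrays limits the precision.

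The deposited values were log2 signals per probe set. A probe set was kept for testing when it reached log2 5 on at least 2 arrays, which held for 22024 probe sets in all and for 19 of the 25 member probe sets. The arrays fell into 3 sets with different distributions of values, numbered here by their upper quartile. Set 1, with upper quartiles of 8.50 to 8.55, held the first Venus-high, Venus-low and naive arrays. Set 2 (8.68 to 8.76) held the second Venus-high, Venus-low and naive arrays and the first PD1-low array. Set 3 (9.39 to 9.42) held the other 5 arrays, among them both PD1-intermediate arrays. Tests were run in limma with group alone (the group fit) and with array set as a further term (the array-set fit), and a call is an adjusted p under 0.05 after Benjamini-Hochberg adjustment over all kept probe sets. The origin of the sets was not tested. All 5 measured CD4 T cell marker genes were high on every array, with a summed level between log2 16.28 and 16.79. Of 8 myeloid genes 7 stayed below log2 5 on every array, Cd68 being the exception. Among 5 genes of B cells, Cd22 reached 13.01, Cd79b 8.99 and Pax5 5.96, and Ms4a1 and Cd79a did not reach log2 5. Of 3 CD8 and NK cell genes Cd8b1 passed it, at up to 6.62, and Cd8a and Ncr1 did not.

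The promoters of 3 members are shown here. They are Il13ra1, together with Il4ra and Socs3, the only members with a call in the group fit. They cover 250 bases before and 50 after the annotated start, from RefSeq on build GRCm38.p6. The promoters of 8 of the 9 members were matched, and that of Il27ra was not used here. Il13ra1 lies at chrX:36111858-36112157 on the plus strand, Il4ra at chr7:125552021-125552320 on the plus strand, and Socs3 at chr11:117969317-117969616 on the minus strand. Capitals mark TTCNNNGAA, the palindromic motif bound by STAT proteins, which reads alike on both strands. The related spacing TTCNNNNGAA was searched too.
Il13ra1: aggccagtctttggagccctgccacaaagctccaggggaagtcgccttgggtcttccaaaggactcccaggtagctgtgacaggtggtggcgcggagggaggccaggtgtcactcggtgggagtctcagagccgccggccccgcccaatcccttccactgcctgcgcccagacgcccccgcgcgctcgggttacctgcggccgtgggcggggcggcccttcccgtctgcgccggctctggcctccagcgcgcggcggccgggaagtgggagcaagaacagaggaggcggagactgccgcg
Il4ra: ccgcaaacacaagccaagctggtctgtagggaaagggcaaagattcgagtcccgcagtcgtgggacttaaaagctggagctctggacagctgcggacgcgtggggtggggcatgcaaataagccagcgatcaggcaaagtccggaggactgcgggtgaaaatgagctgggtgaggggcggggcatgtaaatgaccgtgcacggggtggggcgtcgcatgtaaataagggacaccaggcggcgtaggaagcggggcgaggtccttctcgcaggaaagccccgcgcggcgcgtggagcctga
Socs3: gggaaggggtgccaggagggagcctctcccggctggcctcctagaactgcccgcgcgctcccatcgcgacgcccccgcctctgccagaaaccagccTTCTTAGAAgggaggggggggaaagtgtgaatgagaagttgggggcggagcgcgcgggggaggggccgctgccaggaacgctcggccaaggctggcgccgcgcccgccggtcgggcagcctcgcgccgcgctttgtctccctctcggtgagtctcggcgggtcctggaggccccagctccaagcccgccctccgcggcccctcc
Of the 8 member promoters only Socs3 held a match, 1 copy that began 154 bases before the start. TTCNNNGAA was found in 8.3% of 32851 promoters of the same length, TTCNNNNGAA in 6.95% and either of them in 14.6%. A match is a string of letters and not a shown binding site.

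Il13ra1, the partner of Il4ra in the receptor shared by IL-4 and IL-13, was high in Venus-high Tfh cells and near the bottom of the scale elsewhere. Its probe set 1454783_at had log2 signals of 7.82, 8.42 and 10.15 in Venus-high Tfh cells, against 2.56, 2.38 and 4.97 in Venus-low Tfh cells. The other 6 arrays lay between 2.37 and 2.55 for this probe set. The lowest Venus-high array was above the highest array of every other group, and the third Venus-low array stood above the other Venus-low arrays. The probe set 1427164_at gave 9.62, 7.48 and 9.55 in Venus-high Tfh cells, against 2.43, 2.40 and 3.43 in Venus-low Tfh cells. The remaining arrays read 2.19 to 2.43 for it. Expressed as bounds against the filter level of log2 5, the Venus-high mean exceeded that of Venus-low Tfh cells at least 13.9-fold for 1454783_at and at least 14.8-fold for 1427164_at. Within array sets 1, 2 and 3, Venus-high minus Venus-low was 5.26, 6.05 and 5.19 for 1454783_at, and 7.19, 5.07 and 6.11 for 1427164_at. These differences chose the gene and carry no test.

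The other 3 Il13ra1 probe sets did not pass the filter, and 2 of them were still highest in Venus-high Tfh cells. Probe set 1427165_at read 2.92, 4.70 and 9.67 in Venus-high Tfh cells, against 2.19, 2.18 and 2.16 in Venus-low Tfh cells. Probe set 1451775_s_at read 4.25, 3.22 and 7.04 in Venus-high Tfh cells, against 2.26, 2.19 and 2.18 in Venus-low Tfh cells. For both, the third Venus-high array carried most of the signal. Probe set 1425625_at stayed between 2.22 and 2.32 on all arrays. The 5 probe sets of the gene thus disagreed in level, and 1 of them stayed near the bottom of the scale in every population. The kept pair of probe sets passed the filter through its Venus-high arrays alone. Outside Venus-high Tfh cells the pair lay below log2 5 on every array, where signals carry no order. Its lack of a call in comparisons of the other groups therefore shows nothing about differences between them.

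Because Il13ra1 is known from myeloid cells, the levels of myeloid genes are given beside it. The summed myeloid level was log2 8.93 to 9.34 in Venus-high, 8.26 to 8.90 in Venus-low, 6.75 to 7.18 in PD1-intermediate, 6.19 to 6.81 in PD1-low and 5.65 to 6.24 in naive cells. Cd68, a lysosomal glycoprotein, made up this order, with 9.10 ± 0.24 in Venus-high, 8.49 ± 0.36 in Venus-low and 3.97 ± 0.12 in naive cells (SD, n = 3, 3 and 2). The defining genes Lyz2, Cd14, Csf1r and Itgam stayed below log2 5 on every array. The summed B cell level ran in the same order, from 12.16 to 13.01 in Venus-high Tfh cells against 4.77 to 6.30 in naive cells, and Cd22, at 12.51 ± 0.45 in Venus-high Tfh cells, made up most of it. Cd79b, a subunit of the B cell receptor complex, did not follow this order. It averaged 3.20 ± 0.75 in Venus-high Tfh, 5.05 ± 2.14 in Venus-low Tfh, 6.67 ± 0.03 in PD1-intermediate Th, 7.41 ± 2.24 in PD1-low Th and 2.71 ± 0.14 in naive cells. Pax5 passed log2 5 on the 4 arrays of set 2 alone, and Cd79a and Ms4a1 on none. Of 5 dendritic cell genes Zbtb46 alone reached log2 5, at up to 7.48, with lower values in set 2. Of 4 genes of stroma and endothelium Pecam1 alone did, at up to 8.59. Neither was called between Venus-high Tfh and PD1-low Th cells in either fit. The part of other cell types in the Il13ra1 difference was not tested.

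**Figure D1:**
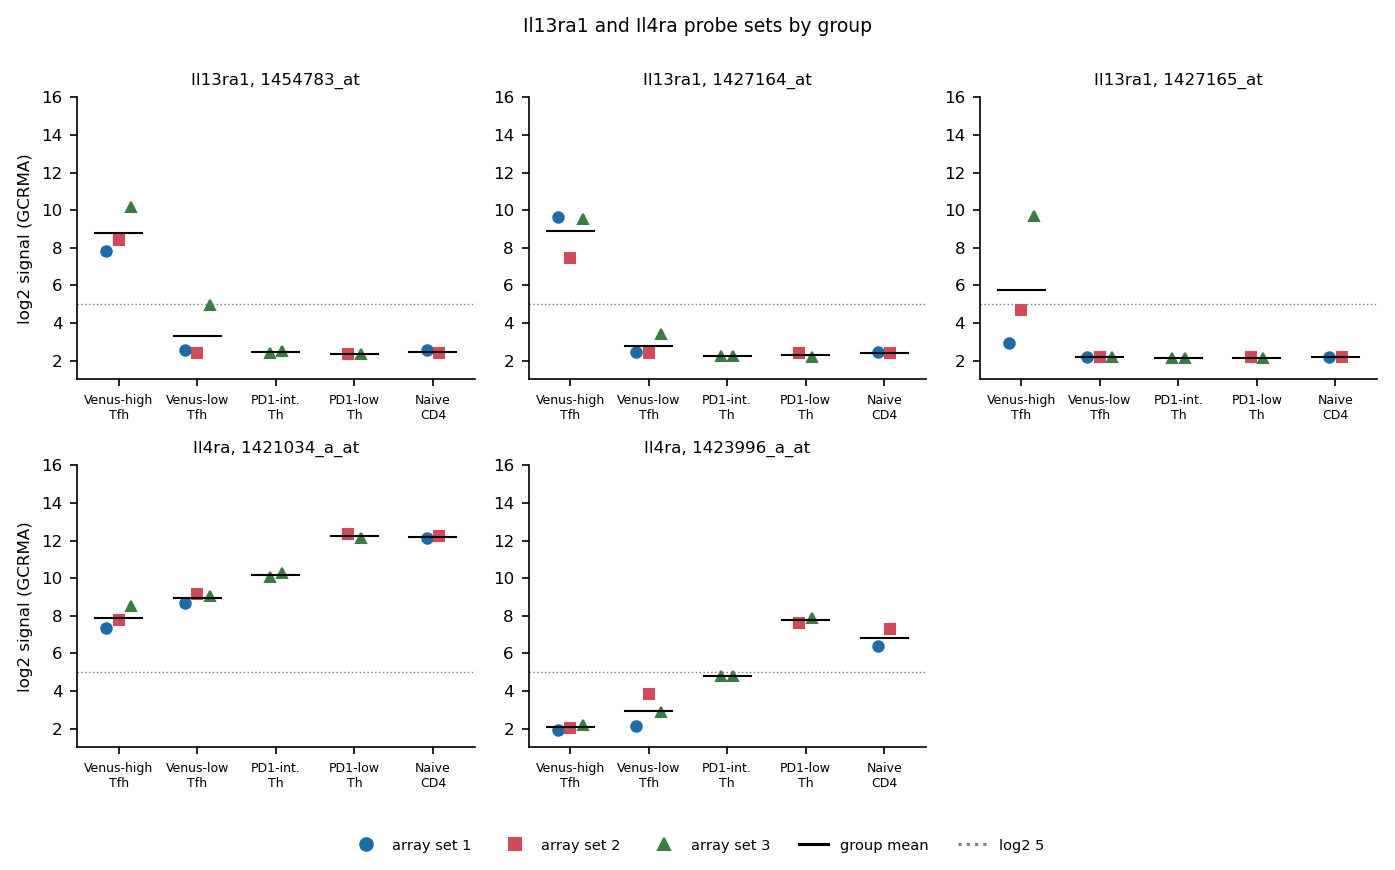
Log2 signal (vertical axis) on each of the 12 arrays for 3 Il13ra1 and 2 Il4ra probe sets, by sorted group, with symbols for the array set, black bars for group means and a dotted line at log2 5. Il13ra1 1454783_at reads 7.82 to 10.15 in Venus-high Tfh cells and at most 4.97 elsewhere, while Il4ra 1421034_a_at steps up through the groups to 12.14 to 12.36 in PD1-low Th and 12.16 to 12.25 in naive cells.

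Il4ra, the subunit common to both IL-4 receptors, ran the opposite way and was lowest in Venus-high Tfh cells. Its brightest probe set 1421034_a_at read 7.36, 7.78 and 8.54 in Venus-high and 8.67, 9.16 and 9.07 in Venus-low Tfh cells. It read 10.07 and 10.30 in PD1-intermediate Th cells, 12.36 and 12.14 in PD1-low Th cells and 12.16 and 12.25 in naive cells. The first 4 groups did not overlap in this order, and PD1-low and naive cells could not be separated. The probe set 1423996_a_at read 1.94, 2.06 and 2.19 in Venus-high and 2.13, 3.83 and 2.87 in Venus-low Tfh cells. It read 4.79 on both PD1-intermediate arrays, 7.63 and 7.90 in PD1-low Th cells and 6.38 and 7.30 in naive cells. The tie was exact, as for 6.17% of kept probe sets on those 2 arrays. The dimmest probe set, 1447858_x_at, stayed between 1.89 and 1.94 everywhere.

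The Il4ra falls were large and were called in both fits. For 1421034_a_at the level in Venus-high Tfh cells minus that in PD1-low Th cells was -4.36 ± 0.35 (SE), a 20.6-fold lower signal with limma adjusted p = 2.16e-04, or 1.18e-04 in the array-set fit. Venus-low Tfh cells were 9.76-fold below PD1-low Th cells, with adjusted p = 0.00120, or 3.80e-04 with array set. Against naive cells, Venus-high Tfh cells were 19.9-fold lower with adjusted p = 1.91e-04, or 6.85e-05 with array set. These calls held when any 1 of the 12 arrays was left out, with adjusted p of at most 0.0183 in the group fit. The second probe set, 1423996_a_at, was below log2 5 on all Tfh arrays. Its falls are therefore bounds of at least 6.80-fold against PD1-low Th cells and at least 3.58-fold against naive cells, called in both fits. It passed the filter through the PD1-low and naive arrays alone, so these calls are no independent support for the fall.

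The levels of other markers that were lower in Tfh than in PD1-low Th cells are given beside Il4ra, chosen by that direction. Cd8b1, the CD8 beta chain, averaged 2.89 ± 0.33 in Venus-high and 3.52 ± 0.84 in Venus-low Tfh cells, against 6.49 ± 0.19 in PD1-low Th cells (SD). It was at least 2.80-fold lower in both Tfh groups, with adjusted p = 0.0128 for Venus-high and 0.0341 for Venus-low in the group fit, and was called in the array-set fit too. The summed CD8 and NK cell level was 3.92 to 4.18 in Venus-high and 3.94 to 4.69 in Venus-low Tfh cells. It was 5.10 to 5.18 in PD1-intermediate, 6.51 to 6.78 in PD1-low and 4.17 to 5.50 in naive cells. Cd79b was at least 5.33-fold lower in Venus-high Tfh than in PD1-low Th cells, called in the array-set fit (adjusted p = 0.0192) and not in the group fit (0.108). Cd22, on the same B cell list, went the other way and was at least 182-fold higher in Venus-high Tfh than in PD1-low Th cells. The summed level of 3 genes that mark naive T cells ran in the order of Il4ra, at 11.12 to 12.33 in Venus-high, 12.30 to 13.41 in Venus-low, 13.99 to 14.49 in PD1-intermediate, 15.24 to 15.44 in PD1-low and 15.40 to 15.56 in naive cells. The part of other cell types in the Il4ra difference was not tested.

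PD1-intermediate Th cells lay between Tfh and PD1-low Th cells. Their Il4ra signal for 1421034_a_at was 4.19-fold below PD1-low Th cells, with adjusted p = 0.0378 in the group fit and 0.00745 in the array-set fit. For 1423996_a_at, which passed the filter through the PD1-low and naive arrays alone, it was at least 6.80-fold lower, with adjusted p = 0.0290 and 0.00770. In the group fit the call for 1421034_a_at was lost in 10 of 12 fits that left out 1 array, with adjusted p up to 0.348, and that for 1423996_a_at in 8 of 12, up to 0.246. In the array-set fit the calls were lost without the first PD1-intermediate array for both probe sets and, for 1423996_a_at, without the second PD1-low array, with adjusted p up to 0.0897. Venus-low minus PD1-intermediate was -1.22 ± 0.35 for 1421034_a_at, which passed in neither fit, with adjusted p of 0.406 and 0.134. PD1-low minus naive was 0.05 ± 0.39 for it, with adjusted p of 1.00. Since these are RNA levels of bulk populations, fewer cells with the transcript and less transcript per cell cannot be told apart.

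Venus-high minus Venus-low for Il4ra, given as a description, was -1.31, -1.38 and -0.53 within the 3 array sets for 1421034_a_at. For 1423996_a_at it was -0.19, -1.78 and -0.68, all below the filter level. Signals that low carry no order, so the lower Il4ra level in all 3 sets rests on 1421034_a_at. No other member gene was lower in all 3, while 8 probe sets of Il13ra1, Il6ra, Il6st, Stat3 and Stat6 were higher in all 3. Counting 1423996_a_at, 10 of 19 kept member probe sets had the same sign in all 3 sets, against 47.2% of all kept probe sets, which include others below the filter level in both Tfh groups. The 8 and the 10 also count both kept Il13ra1 probe sets, whose rise in Venus-high Tfh cells chose the gene. The member count is therefore not read as a result against that share.

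**Figure D2:**
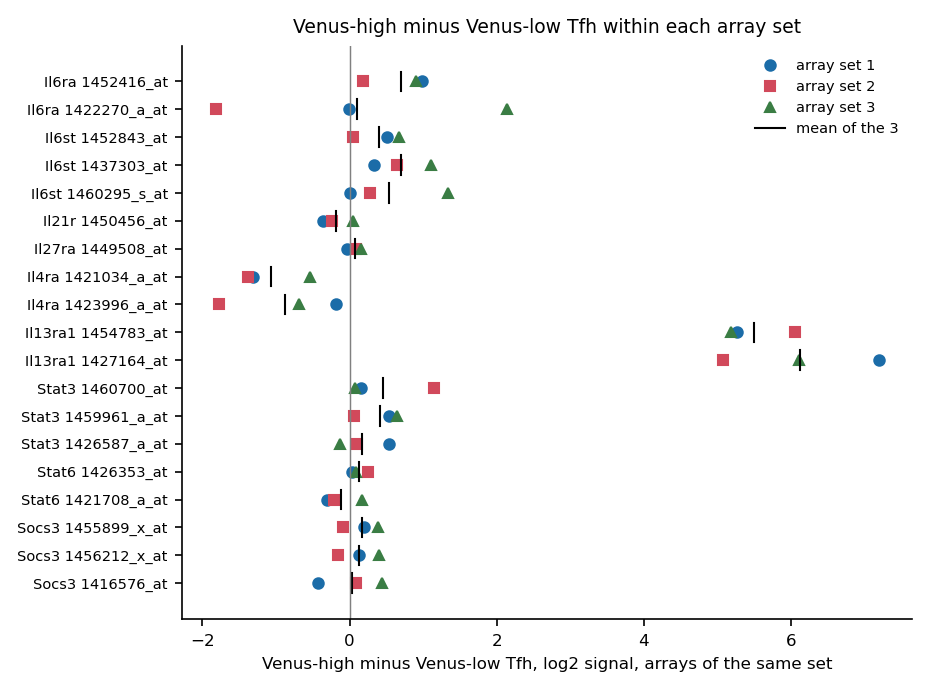
Venus-high minus Venus-low Tfh difference in log2 signal (horizontal axis) within each of the 3 array sets for the 19 kept member probe sets, with the mean of the 3 as a black bar. Both Il13ra1 probe sets lie between 5.07 and 7.19, Il4ra 1421034_a_at lies between -1.38 and -0.53, and Il6ra 1422270_a_at, which crosses the filter level, spreads from -1.82 to 2.14.

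Il6ra, the IL-6 binding subunit, was present in every population. Its main probe set 1452416_at read 11.92, 12.46 and 13.10 in Venus-high and 10.92, 12.27 and 12.19 in Venus-low Tfh cells. It read 12.61 and 12.80 in PD1-intermediate Th cells, 12.96 and 13.10 in PD1-low Th cells and 11.44 and 12.88 in naive cells. The lowest array of each Tfh group and of the naive cells was the one in array set 1. Venus-low Tfh cells were below PD1-low Th cells by 1.23 ± 0.57 in the group fit, which did not pass (adjusted p = 0.373), and by 0.83 ± 0.22 in the array-set fit, which did (adjusted p = 0.0321). That call was lost in 6 of 12 fits that left out 1 array, with adjusted p up to 0.164. Venus-high Tfh cells had no such call, at -0.14 ± 0.22 in the array-set fit (adjusted p = 0.695). As a description, Venus-high exceeded Venus-low by 0.99, 0.19 and 0.91 in the 3 sets. The second probe set, 1422270_a_at, crossed the filter level within groups, with 2.14, 3.47 and 6.31 in Venus-high and 2.15, 5.29 and 4.17 in Venus-low Tfh cells, and had no call.

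Il6st, which encodes gp130, gave levels that followed array set more than cell population. Probe set 1452843_at read 14.13, 7.03 and 14.25 in Venus-high and 13.63, 6.99 and 13.58 in Venus-low Tfh cells. It read 14.04 and 14.09 in PD1-intermediate, 6.68 and 13.79 in PD1-low and 13.30 and 6.15 in naive cells. The 4 low values, from 6.15 to 7.03, were the 4 arrays of set 2. Probe set 1437303_at went the other way, at 12.71 to 13.97 in set 2 and 8.64 to 11.79 in the other sets. Probe set 1460295_s_at read 3.50 on all 3 arrays of set 1 and 8.40 to 10.35 on the others. The fourth, 1421239_at, stayed below log2 5 and was not tested. Group means of Il6st therefore depend on which sets a group contains, and only differences within sets are read here.

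Within sets, Il6st was slightly higher in Tfh than in naive cells for the brightest probe set. Venus-high minus naive was 0.84 in set 1 and 0.88 in set 2 for 1452843_at, and 0.91 ± 0.16 in the array-set fit (adjusted p = 0.00649). The call held without any 1 of the 12 arrays, with adjusted p up to 0.0395. In the group fit the same difference was 2.08 ± 3.39 with adjusted p = 0.956, and with array set as a random block the adjusted p was 0.307. The probe set 1437303_at gave 0.05 and 1.27 within the same 2 sets and did not pass (adjusted p = 0.0999 with array set). For 1460295_s_at the difference was 0 in set 1, where all arrays shared 1 value, and 0.14 in set 2. Against PD1-low Th cells no Il6st probe set was called in either fit. As a description, Venus-high exceeded Venus-low by 0.50, 0.04 and 0.67 for 1452843_at and by 0.33, 0.65 and 1.10 for 1437303_at.

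**Figure D3:**
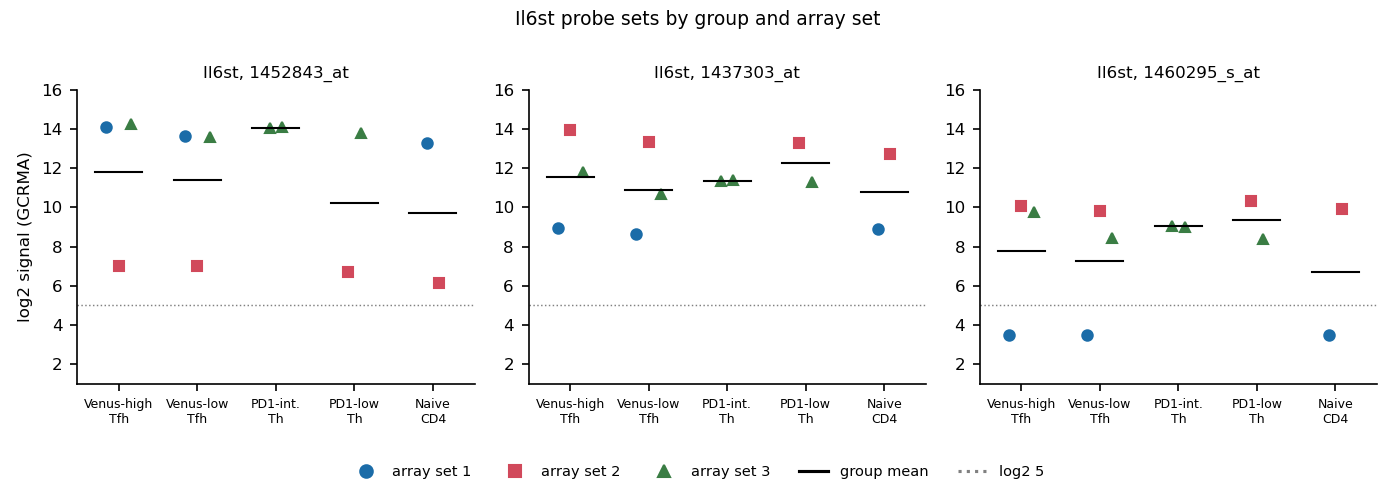
Log2 signal (vertical axis) of the 3 kept Il6st probe sets on each of the 12 arrays, by sorted group, with symbols for the array set and black bars for group means. For 1452843_at the 4 arrays of set 2 read 6.15 to 7.03 and the other 8 arrays 13.30 to 14.25, so the array set and not the group separates the values.

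Il21r, the receptor for the IL-21 that Tfh cells make, was lower in both Tfh groups than in the other cells. Its probe set 1450456_at read 9.49, 9.77 and 10.79 in Venus-high and 9.85, 10.01 and 10.75 in Venus-low Tfh cells. It read 11.61 and 11.44 in PD1-intermediate Th, 10.84 and 11.41 in PD1-low Th and 10.95 and 10.89 in naive cells. Every Tfh array lay below every array of the other 3 groups, by a small margin. With array set in the fit, Venus-high Tfh cells were below PD1-low Th cells by 0.92 ± 0.16 (adjusted p = 0.00673) and below naive cells by 1.20 ± 0.16 (adjusted p = 0.00180). Venus-low Tfh cells were below PD1-low Th cells by 0.73 ± 0.16 (adjusted p = 0.0164). None of these passed in the group fit, where adjusted p was 0.263, 0.385 and 0.394. Leaving out the first PD1-low array ended both calls against PD1-low Th cells, and leaving out the third Venus-low array also ended the Venus-low one, with adjusted p up to 0.139. The call against naive cells held without any 1 array. Venus-low minus PD1-intermediate was -0.72 ± 0.17 with array set and did not pass (adjusted p = 0.0881).

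Il27ra, the ligand-specific subunit of the IL-27 receptor, which signals with gp130, had nearly flat levels. Probe set 1449508_at read 13.21, 13.42 and 13.57 in Venus-high and 13.25, 13.33 and 13.41 in Venus-low Tfh cells. It read 13.87 and 13.92 in PD1-intermediate, 13.61 and 13.82 in PD1-low and 13.51 and 13.67 in naive cells. The Tfh arrays were at the lower end and the PD1-intermediate arrays at the top. No comparison was called in either fit. The nearest was Venus-low minus PD1-low at -0.31 ± 0.10 in the array-set fit (adjusted p = 0.0639), which passed with array set as a random block (0.0479).

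Socs3, the feedback inhibitor of gp130 signalling, was highest in PD1-intermediate Th cells and lowest in both Tfh groups for 1 of its 3 probe sets. Probe set 1416576_at read 8.98, 9.71 and 9.66 in Venus-high and 9.40, 9.62 and 9.22 in Venus-low Tfh cells. It read 11.68 and 11.57 in PD1-intermediate Th, 10.78 and 10.90 in PD1-low Th and 10.29 and 11.13 in naive cells. No Tfh array reached the level of any other array. Venus-low Tfh cells were 2.68-fold below PD1-low Th cells, with adjusted p = 0.0491 in the group fit and 0.00668 with array set. The group-fit call was lost in 9 of 12 fits that left out 1 array, with adjusted p up to 0.239. Venus-high Tfh cells were 2.62-fold below PD1-low Th cells, with adjusted p = 0.0502 and 0.00733 in the same 2 fits, and both array-set calls were lost only without the second PD1-low array (adjusted p of 0.0670 for Venus-high and 0.0600 for Venus-low).

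Against PD1-intermediate Th cells, Socs3 1416576_at in Venus-low Tfh cells was 4.63-fold lower. This passed in the array-set fit (adjusted p = 0.0194) and not in the group fit (0.0631), and was lost without the third Venus-low array or either PD1-intermediate array. Venus-high Tfh cells were below naive cells by 1.26 ± 0.34, with adjusted p = 0.0625, and by 1.30 ± 0.22 with array set, with adjusted p = 0.00485. The array-set call held without any 1 array. The other Socs3 probe sets, 1455899_x_at and 1456212_x_at, carry a suffix that marks probes able to bind other transcripts. The brighter of them read 13.64, 12.42 and 12.57 in Venus-high and 13.45, 12.51 and 12.18 in Venus-low Tfh cells. It read 13.43 and 13.48 in PD1-intermediate, 13.10 and 13.06 in PD1-low and 13.86 and 13.57 in naive cells. Their Tfh and other arrays overlapped in part and they had no call in either fit. With array set as a random block 1455899_x_at was called lower in Venus-low Tfh than in PD1-intermediate Th (adjusted p = 0.0301) and PD1-low Th cells (0.0425) and in Venus-high Tfh than in naive cells (0.0417), and 1456212_x_at in Venus-low Tfh than in PD1-intermediate Th cells (0.0401). All 6 of their Tfh differences against PD1-low and naive cells were below 0 in both fits. As a description, Venus-high minus Venus-low for 1416576_at was -0.42, 0.09 and 0.44 in the 3 sets.

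**Figure D4:**
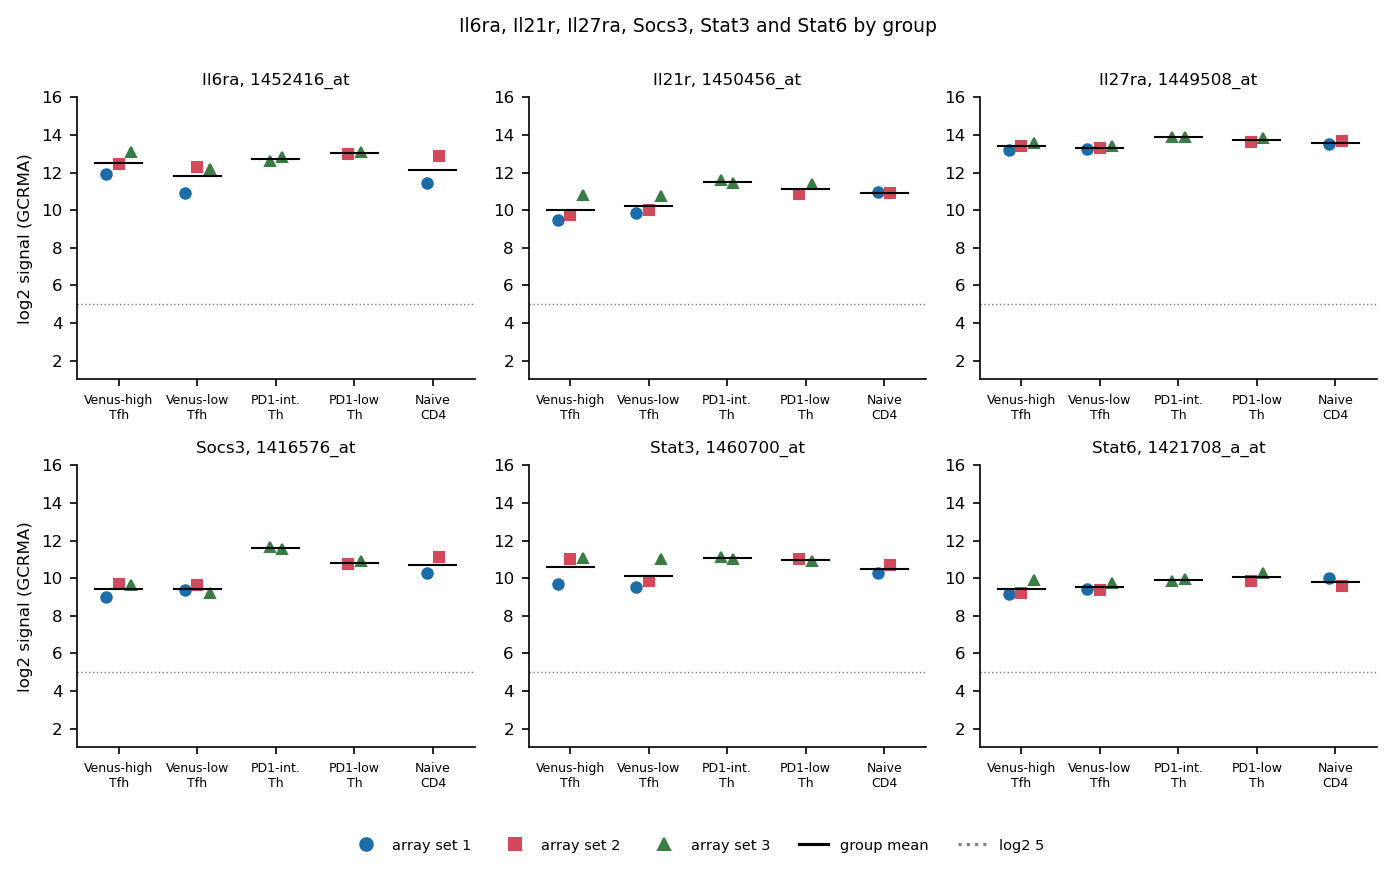
Log2 signal (vertical axis) on each of the 12 arrays for 1 probe set each of Il6ra, Il21r, Il27ra, Socs3, Stat3 and Stat6, by sorted group, with symbols for the array set and black bars for group means. The Tfh arrays lie below all others for Il21r (at most 10.79, against at least 10.84) and for Socs3 1416576_at (at most 9.71, against at least 10.29).

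Stat3, the main factor downstream of IL-6 and IL-21, had no call in the group fit. Probe set 1460700_at read 9.69, 11.01 and 11.09 in Venus-high and 9.54, 9.87 and 11.01 in Venus-low Tfh cells. It read 11.12 and 11.00 in PD1-intermediate, 11.05 and 10.91 in PD1-low and 10.30 and 10.73 in naive cells, so the groups overlapped. Probe set 1459961_a_at read 10.39, 10.23 and 10.96 in Venus-high, 9.85, 10.18 and 10.31 in Venus-low and 10.08 to 11.00 in the other cells. Neither was called in any comparison of either fit. Venus-low minus PD1-intermediate was -0.92 ± 0.54 for 1460700_at and -0.86 ± 0.34 for 1459961_a_at in the group fit (SE). The lack of a call therefore does not show equal levels. Probe set 1426587_a_at read 9.23, 7.95 and 8.50 in Venus-high Tfh cells, against 7.69 and 7.60 in naive cells. Its difference of 0.86 ± 0.25 in the array-set fit had adjusted p = 0.0433, was 0.341 in the group fit, and was lost in 11 of 12 fits that left out 1 array, with adjusted p up to 0.220. The dimmest, 1424272_at, did not pass the filter.

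Stat6, the main factor downstream of IL-4 and IL-13, was high in every population and had no call in the group fit. Probe set 1426353_at read 13.30, 12.94 and 13.23 in Venus-high and 13.26, 12.68 and 13.15 in Venus-low Tfh cells. It read 13.06 and 13.23 in PD1-intermediate, 13.08 and 13.46 in PD1-low and 13.63 and 12.99 in naive cells, with no call. Probe set 1421708_a_at read 9.14, 9.19 and 9.90 in Venus-high, against 9.85 and 10.27 in PD1-low Th and 10.03 and 9.60 in naive cells. In the array-set fit the Venus-high level was below PD1-low Th cells by 0.60 ± 0.16 (adjusted p = 0.0381) and below naive cells by 0.56 ± 0.16 (adjusted p = 0.0420). Neither passed in the group fit (0.401 and 0.733), and leaving out 1 array ended these calls in 8 and 10 of 12 fits, with adjusted p up to 0.224 and 0.213. Venus-low minus PD1-low for this probe set was called in neither fit (adjusted p of 0.539 and 0.0707), and passed with array set as a random block (0.0461).

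Counted over probe sets, the members did not stand out from the array as a whole in every comparison. Venus-high minus PD1-low called 2 of 17 member probe sets, both of Il4ra, in the group fit, where 6.1% of all kept probe sets were called, and 5 of 17 in the array-set fit, where 24.2% were called. Venus-low minus PD1-low called 3 of 19, where 5.41% of all were called, and 5 of 19 with array set, where 26.3% were called. Venus-high minus naive called 2 of 17, where 7.77% of all were called, and 7 of 17 with array set, 2 higher and 5 lower, where 29% were called. PD1-intermediate minus PD1-low called 2 of 19 in both fits, where 1.99% and 7.24% of all were called. Venus-low minus PD1-intermediate called 0 of 19, with 6 at an unadjusted p under 0.05, and 1 of 19 with array set, where 0.182% and 1.9% of all were called. PD1-low minus naive called 0 of 19 in both limma fits, with 0 at an unadjusted p under 0.05 in the group fit, where 0.0318% and 0.25% of all were called. Counts out of 19 include both kept Il13ra1 probe sets, which lay below log2 5 on every array compared there. The Il4ra calls in these counts include 1423996_a_at, which passed the filter through the PD1-low and naive arrays alone.

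Apart from the 2 higher calls against naive cells, every call among the tested member probe sets in these 6 comparisons was a lower level in the first-named group. The Venus-high counts and medians leave out both kept Il13ra1 probe sets, which were higher in Venus-high Tfh cells. In the group fit every member call was of Il4ra, except for a Socs3 call in Venus-low minus PD1-low. Over all kept probe sets, 587 of 1344 Venus-high minus PD1-low calls were lower, and 2578 of 5327 with array set. For Venus-low minus PD1-low these were 474 of 1191 and 2846 of 5789. For Venus-high minus naive they were 514 of 1712 and 3348 of 6384. For PD1-intermediate minus PD1-low they were 110 of 439 and 600 of 1594, and for Venus-low minus PD1-intermediate 16 of 40 and 169 of 419. The median member difference for Venus-high minus PD1-low was -0.54, against -0.18 over all kept probe sets, and -0.24 against -0.04 with array set. For Venus-low minus PD1-low it was -0.54 against -0.19, and -0.49 against -0.07 with array set. With array set it was -0.26 against -0.03 for Venus-high minus naive and -0.42 against -0.04 for Venus-low minus PD1-intermediate. PD1-intermediate minus PD1-low and PD1-low minus naive had medians near those of all kept probe sets, at -0.01 against -0.03 and -0.03 against -0.01 with array set. These comparisons share arrays, so their member counts are not independent of each other.

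**Figure D5:**
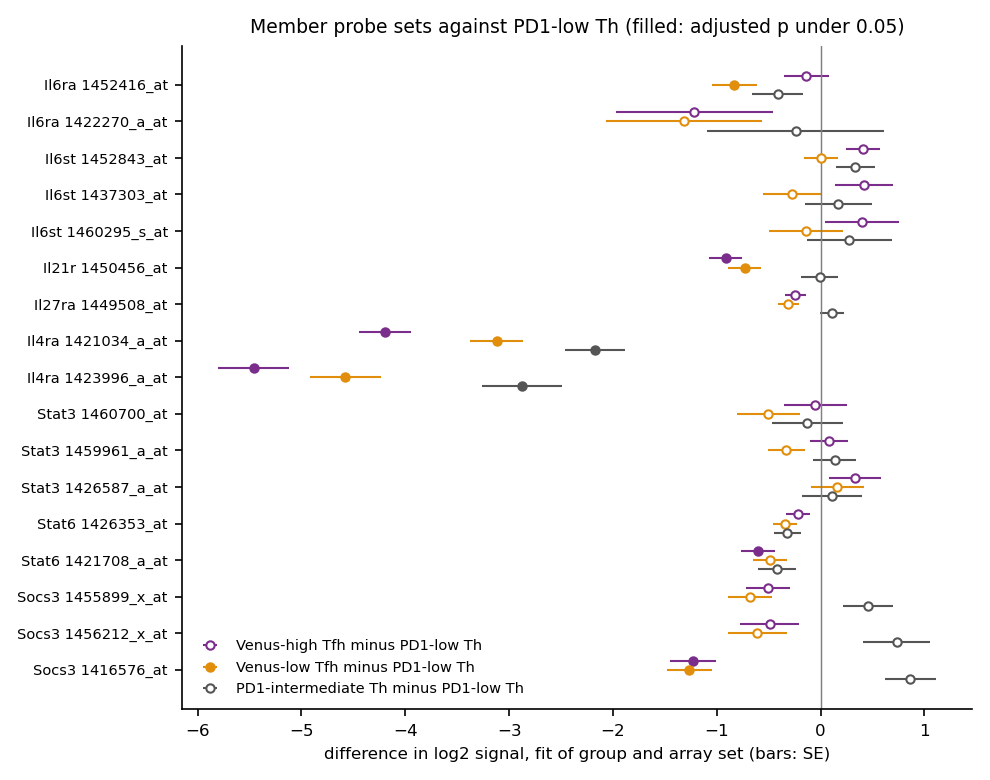
Differences from PD1-low Th cells in log2 signal (horizontal axis) for the 17 kept member probe sets other than those of Il13ra1, in Venus-high Tfh, Venus-low Tfh and PD1-intermediate Th cells, from the fit of group and array set with standard errors as bars. Filled points passed an adjusted p under 0.05; Il4ra 1421034_a_at lies at -4.19, -3.12 and -2.17, and the filled points of other genes between -0.60 and -1.27. The Il4ra 1423996_a_at points are fitted values of groups below log2 5 and show no measured size beyond the bound of at least 6.80-fold.

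Genes whose pattern was most like a member's were listed by Pearson correlation over the 12 arrays after removal of array-set effects, as a description over points that share groups. For Il13ra1 these were Ndrg4 (r = 0.994), Rgs8 (r = 0.992) and Mef2b (r = 0.989). For Il4ra they were B4galnt1 (r = 0.998), Npc2 (r = 0.996) and Bach2 (r = 0.992), the last a transcriptional repressor of effector differentiation. For Il21r they were Trib2, Fam102a and Dhx16, from 0.988 to 0.977. The gene closest to Il27ra was Socs3, at r = 0.976 for 1416576_at, followed by 5830428M24Rik and Tbc1d10c. For Socs3 itself, through its brightest probe set, they were Sbno2, Cep97 and Plekha1, for Stat3 Zfp983, Ppm1f and Hmgxb3, and for Stat6 Inafm1, Colgalt1 and Exosc4. The highest correlations were lowest for Il6ra, with Gsn, Znrf1 and Arid2 (0.929 to 0.917), and were 0.962 to 0.946 for Il6st, with Dmap1, Rac2 and Laptm5.

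Some ligands of these receptors differed strongly between the populations. Of 11 ligand genes listed, 10 had a probe set and 6 passed the filter. In the group fit 2 were higher and 2 lower in Venus-high Tfh than in PD1-low Th cells, where 6.1% of all kept probe sets were called, with a median of 0.83 over the 6, against -0.18 over all kept probe sets. Il21 averaged 11.65 ± 0.95 in Venus-high Tfh and 11.35 ± 0.98 in Venus-low Tfh cells, against 2.53 ± 0.21 in PD1-low Th and 2.53 ± 0.20 in naive cells (SD), at least 100-fold higher in Venus-high Tfh than in PD1-low Th cells with adjusted p = 1.22e-04. Il4 averaged 11.81 ± 0.61 in Venus-high Tfh, 11.31 ± 0.88 in Venus-low Tfh and 6.62 ± 1.60 in PD1-intermediate Th cells, against 2.12 ± 0.15 in PD1-low Th cells. It was at least 112-fold higher in Venus-high Tfh than in PD1-low Th cells, with adjusted p = 1.78e-04. Clcf1, a gp130 ligand, was lower by 1.99 ± 0.37 (adjusted p = 0.0156), and Osm, oncostatin M, had a limma adjusted p of 0.0176 and a level reduced at least 2.09-fold. In Venus-low Tfh cells Lif exceeded its PD1-low level by at least 3.08-fold (adjusted p = 0.0105). Il6 and Il13 were below log2 5 on every array. Il21, Il4 and Lif lay below log2 5 on all PD1-low and naive arrays and passed the filter through other groups. Osm passed it through PD1-low and naive arrays alone. The filter itself therefore favours these calls, and the median of the list is not read as a result.

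Few genes for other receptor subunits and kinases were called. Of the other receptor subunits 4 of 9 passed the filter, and 0 were called between Venus-high Tfh and PD1-low Th cells in the group fit, with 1 called in the array-set fit and a median of -0.03, against shares of 6.1% and 24.2% called over all kept probe sets. Il2rb, the IL-2 receptor beta chain, was higher than in naive cells by 3.59 ± 0.30 in Venus-high Tfh cells (adjusted p = 1.99e-04) and by 2.97 ± 0.33 in PD1-low Th cells (adjusted p = 0.0409). Il12rb1 was at least 7.66-fold higher in Venus-high Tfh than in naive cells (adjusted p = 0.00177). Of 8 measured Janus kinases and other STATs, 1 was called in the same comparison with PD1-low Th cells, Jak2, at 1.00 ± 0.24 higher (adjusted p = 0.0499), with a median of -0.09 over the 8, where 6.1% of all kept probe sets were called. Jak2 is one of the kinases bound to gp130 beside Jak1 and Tyk2. Jak1, the main one among them, was at -0.56 ± 0.47 (adjusted p = 0.778) and Tyk2 at 0.21 ± 0.29 (0.924). With array set in the fit 3 of the 8 were higher and 1 lower, where 24.2% of all were called.

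Among 12 feedback and phosphatase genes, 1 was higher and 2 lower in Venus-high Tfh than in PD1-low Th cells, with a median of -0.42, where 6.1% of all kept probe sets were called. With array set in the fit 4 were higher and 3 lower, where 24.2% of all were called. Ptpn11, which encodes the phosphatase SHP2, was higher by 2.29 ± 0.21 (adjusted p = 3.83e-04), and also in PD1-intermediate Th cells by 1.63 ± 0.23 (adjusted p = 0.00921). Cish averaged 3.61 ± 1.02 in Venus-high Tfh cells, against 10.29 ± 1.08 in PD1-low Th cells (SD), and was at least 39.2-fold lower (adjusted p = 0.00171). For Socs2 the reduction was at least 37.5-fold, with adjusted p = 0.00466. Both are inhibitors best known as targets of Stat5.

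Some genes tied to Stat3 and Stat6 in T cells were higher in Tfh cells. Of 12 Stat3-linked genes listed, 11 had a probe set and 9 passed the filter. Of these 9, 4 were higher and 0 lower in Venus-high Tfh than in PD1-low Th cells, with a median of 0.96, where 6.1% of all kept probe sets were called. These were Bcl6, the factor that defines Tfh cells, at 2.50 ± 0.25 (adjusted p = 7.10e-04), Maf at 3.15 ± 0.58 (0.0147), Batf at 2.01 ± 0.48 (0.0483) and Rora at 3.12 ± 0.61 (0.0200). The 5 without a call ranged from -1.94 for Junb to 0.96 for Bcl3, with Pim1 and Fos also below 0. With array set in the fit 5 were higher and 1 lower, Junb at -1.29 ± 0.32 (adjusted p = 0.0262), where 24.2% of all were called. Of 8 Stat6-linked genes listed, 4 passed the filter, and Il5, Il13 and Il24 were below log2 5 on every array. Of the 4, with a median of 3.57, 2 were higher in both fits, where 6.1% and 24.2% of all were called. They were Il4, counted above among the ligands, and Nfil3, at least 64.5-fold (adjusted p = 1.72e-04 in the group fit). Both lay below log2 5 on all PD1-low and naive arrays and passed the filter through the other groups, so the filter itself favours a high median. Gata3, the main Th2 factor, was called against naive cells alone, at 1.25 ± 0.23 higher in Venus-high Tfh cells (adjusted p = 0.0108).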

How the data were processed

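The values deposited by the authors are on a log2 scale, 1 per probe set and array, and come from GCRMA (background adjustment, normalization and summary over probes), per the submitters' processing notes. Its version, and which arrays were normalized together, are not given in the sources used here. Per the labels, RNA from sorted pools was amplified from 20 ng before labelling. Scanner files were not analysed here. The annotation gave 34958 of 45101 probe sets 1 symbol, 932 several and 9211 none.

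The members, the pathway and marker lists and the tests were chosen with earlier results of these data known. The 64 control probe sets were left out. Array sets were 3 clusters of the arrays' quantiles (1 to 99%). The group fit had 5 groups on 12 arrays (7 residual degrees of freedom) and the array-set fit 5, in limma 3.58.1 (R 4.3.3), 2-sided. The scripts were tested on simulated data. All member probe sets are named, with the 3 most alike genes of each member and up to 4 called genes per list and comparison, of which not all are printed. In a list the probe set with the highest mean stands for its gene. Where a group lay below log2 5 on all its arrays, the fold is a bound taken against that level. Figures used Python 3.11.15 with matplotlib 3.10.9.

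Same-numbered Venus-high and Venus-low arrays lay in the same array sets, so their differences are given within sets. They deviated together from their group means (correlations of 0.948, 0.973 and 0.951). Same-numbered Venus-high and naive arrays, also of the same sets, did so too (0.805 and 0.916). The correlations therefore cannot tell shared animals from array set. Same-numbered PD1-low and naive arrays lay in different sets and gave -0.879.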

Additional observations from a re-analysis of the deposited data

How the results depend on the processing

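Over 29 alternative settings, 1278 of 1326 single differences stayed on their side of the threshold. A further 31 passed only in the alternative, and 107 of 145 counts stayed within 1.5 times. A change of sign counted only where the main or the alternative fit made a call, so the 1278 include uncalled differences that changed direction. Il21r for PD1-intermediate minus PD1-low, for example, was 0.40 in the group fit and -0.01 in the array-set fit. For differences given as a description, a change of sign or a large move counted instead. With array set as a fixed term the calls among member probe sets were 1 for Venus-low minus PD1-intermediate (0 in the group fit), 5 for Venus-high minus PD1-low, 5 for Venus-low minus PD1-low and 7 for Venus-high minus naive. As a random block they were 4, 5, 8 and 7. With the replicate block on all 12 arrays they were 5 for Venus-low minus PD1-intermediate, 4 for Venus-high minus PD1-low and 4 for Venus-high minus naive, and the crossed replicate block of PD1-low and naive arrays gave 0. PD1-intermediate minus PD1-low called 1 without a filter, 1 with a trended robust prior, and 0 to 1 when single arrays were left out. With 1 probe set per gene, which leaves 1 Il4ra probe set, the count was 1 in each of PD1-intermediate minus PD1-low, Venus-high minus PD1-low, Venus-low minus PD1-low and Venus-high minus naive. Venus-low minus PD1-intermediate called 1 without probe sets displaced by over log2 3 in 1 array set, and 3 with array weights.

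Leaving out the 4 arrays of set 2, an alternative chosen after seeing the data, gave 0 for PD1-intermediate minus PD1-low and 1 for each Tfh group against PD1-low Th cells, where 1 PD1-low array remains. Il4ra 1421034_a_at then had -4.19 for Venus-high minus PD1-low (adjusted p = 0.0604), -3.27 for Venus-low minus PD1-low (0.119) and -1.96 for PD1-intermediate minus PD1-low (0.615). With array set as a term as well, the counts were 4 for Venus-low minus PD1-intermediate, 1 for PD1-low minus naive, 7 for Venus-low minus PD1-low and 6 for Venus-high minus naive, and Stat3 1460700_at turned to -0.63 for Venus-high minus naive (adjusted p = 0.0275; 0.08 in the group fit). The cause was not tested. Signals near log2 2 carry no order, which limits Il13ra1 outside Venus-high Tfh cells and Il4ra 1423996_a_at in Tfh cells.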
